A study of Pimephales promelas with 20 samples.

Results

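Among the piRNA sequences on which larvae of the fathead minnow (Pimephales promelas) gave reads of the reverse strand, 91 entries varied strongly from library to library, and these are described here. They were chosen as entries of the reverse-strand piRNA table that are not in the forward-strand table, with 100 or more reads over 15 libraries and an SD over 2 of log2(rpm + 0.5), where rpm is reads per 1000000 reads of the reverse table. Of 584 entries in that table, 455 were in the reverse table only, 450 of these had 100 or more reads, and 91 of the 450 also passed the threshold on SD. The values that chose the entries were their own read counts, so their spread is given as a description. EE2 libraries came from whole larvae kept from 48 to 96 h after hatching in static water with 10 ng/L of ethinyl estradiol (EE2), a synthetic estrogen. Control libraries came from whole larvae of the same age kept without EE2, and no strain, genotype or other agent is named for either group. The labels give 10 libraries per group, of which 7 EE2 and 8 control libraries have piRNA counts. The labels do not say whether a library is 1 larva or a pool, so p-values measure only the spread between these libraries.

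piRNAs are small RNAs that guide PIWI proteins, and their best known task is to silence transposons in germ cells. Many are cut from long precursors, and in the amplification cycle that PIWI proteins share, a piRNA of one strand directs the cutting of a transcript of the other strand, so that piRNAs of both strands arise. In zebrafish, a related cyprinid, piRNAs are abundant in ovary and testis, and PIWI proteins are supplied to the embryo by the mother. Reads of these larvae were counted on zebrafish piRNA sequences, and the entries carry numbered names that are paired with no gene or transposon in the files used here. "Reverse" was taken as the strand opposite to the reference sequence. An entry outside the forward table need not be free of forward reads, because the lowest total in that table was 73 reads.

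The entries were rare. Together they held 21462 reads, 1.23% of all reverse-strand piRNA reads, with a median of 183 reads per entry and a range of 100 to 1423. The 359 reverse-only entries with as many reads but an SD up to 2 had a median of 460 reads. Library totals of the reverse table ran from 71010 to 170677 reads after EE2 and from 56993 to 159897 in controls. At these depths 1 read was worth 5.86 to 17.5 rpm, so an entry stood at -1 on the log2 scale with 0 reads and at 2.67 to 4.17 with 1 read. This step from 0 to 1 read was part of the spread: over the libraries with at least 1 read, 22 of the 91 entries still had an SD over 2, and the median SD was 1.60, against 3.03 with the 0-read libraries included. When rpm was taken from the larger forward-table totals, 33 entries passed the rule, all of them among the 91. The entries just above the SD threshold were piR-dre-1058239 (2.05) and piR-dre-783399 (2.06), and just below it were piR-dre-11 (1.94) and piR-dre-246 (1.90). At the threshold on reads, piR-dre-1204894 and piR-dre-748522 had 100 reads, and the reverse-only entries piR-dre-964561 and piR-dre-1091891, with SDs over 2, had 97 and 96.

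Single entries ranged from 0 reads to 873 in EE2 libraries and from 0 to 569 in controls. Of 637 counts in EE2 libraries, 33.9% were 10 or more reads (called present), 29.4% were 0 or 1 read (called absent) and 36.7% lay between. Of 728 counts in control libraries, 47.5% were present, 22.8% absent and 29.7% between. In the 359 steadier entries, 81.3% of EE2 counts and 81.5% of control counts were present, and 1.23% of EE2 counts and 0.836% of control counts were absent. The rule favours this contrast, since it split entries by spread. An entry was present in 3 to 13 of the 15 libraries, 27 entries in fewer than 5 and 8 in 10 or more. The entries followed 46 different patterns of libraries with and without 10 reads, and the commonest pattern was shared by 14 entries. Presence was mixed within groups for most entries: 88 were present in at least 1 library of each group, and 62 were both present and absent in each group.

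Libraries differed widely in how many of the 91 entries they held. EE2 libraries held from 8 to 60 present entries (median 26), and control libraries held from 6 to 78 (median 37.5), so the groups overlapped over almost their whole range. The 3 shallowest libraries held the fewest: EE2 replicates 9 and 7, with 72076 and 71010 reads, held 8 and 9, and control 6, with 56993 reads, held 6. Among deeper libraries, EE2 replicate 1, with 133684 reads, held 20 entries and control 2, with 105689 reads, held 68. After every library was thinned to 56993 reads, EE2 libraries held 7 to 45 present entries (median 9) and control libraries 6 to 47 (median 17). The 91 entries took 0.512% to 2.40% of reverse reads in EE2 libraries and 0.498% to 3.77% in controls, with EE2 replicate 5 and control 2 highest in their groups.

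**Figure D1:**
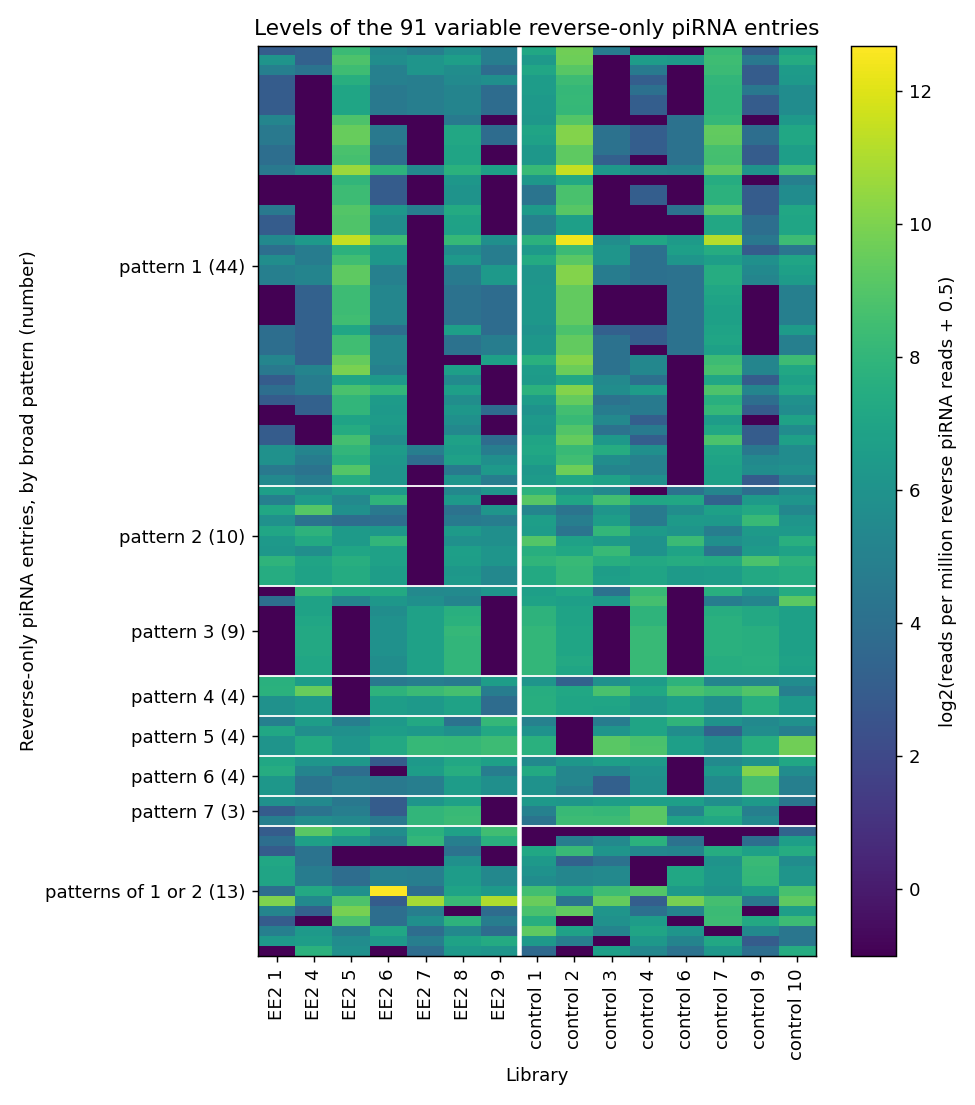
Level of each of the 91 entries (rows, grouped by broad pattern) in each library (columns, 7 EE2 libraries left of 8 control libraries), as log2 of rpm of reverse-strand piRNA reads plus 0.5, with the darkest colour at 0 reads. In the largest pattern EE2 replicate 5, control 2 and control 7 are bright, and within the third pattern a block of entries is at 0 reads in EE2 replicates 1, 5 and 9 and in controls 3 and 6.

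Many entries repeated the profile of another. Collapsing entries whose log2 profiles correlated at 0.95 or more over the 15 libraries left 65 profiles, of which 50 belonged to 1 entry, 10 to 2 entries and 5 to 3 or more. The closest copies had identical counts in all libraries, as 3 of the 91 had with another reverse entry. Others differed by a few reads: piR-dre-142480 and piR-dre-187911 had the same count in every library except control 4, where they had 55 and 56 reads, and 37 of the 91 entries were within 10 summed reads of another reverse entry. The group around piR-dre-34480 held piR-dre-34479, piR-dre-34480 and piR-dre-34481, which carry consecutive numbers. Counts over the 91 entries therefore count some profiles more than once. Whether copies share reads was not tested, since no sequences were used.

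A looser grouping, at a mean correlation of 0.5 and chosen after the data had been seen, gave 17 broad patterns. The largest held 44 entries in 31 profiles. All 44 were present in EE2 replicate 5 and in controls 2 and 7, and 40 were present in control 1. EE2 replicates 8 and 6 held 24 and 13 of them, and control 10 held 19. In the remaining libraries 0 were present in EE2 replicates 1, 4, 7 and 9 and 0 to 3 in controls 3, 4, 6 and 9. Each group thus had at least 1 library with all 44 present and several with few or 0 present. Not present did not always mean absent. Of the 44, 20 to 34 were absent in EE2 replicates 1, 4, 7 and 9. In controls 3, 4, 6 and 9, 19 to 39 were absent, and most others lay between.

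piR-dre-603835, the entry with most reads, belongs to this pattern. It had 0 to 393 reads in EE2 libraries (median 9) and 3 to 569 in controls (median 25). Its high libraries were EE2 replicate 5 with 393 reads, control 2 with 569 and control 7 with 249, and the next was EE2 replicate 8 with 49. piR-dre-13913 had 0 to 100 reads after EE2 (median 3) and 1 to 119 in controls (median 8), with the same 3 libraries on top. In both entries the groups overlapped, and each group had its low libraries at 6 reads or fewer. piR-dre-690731 had 3 to 222 reads in EE2 libraries (median 8) and 2 to 303 in controls (median 22.5), highest again in EE2 replicate 5, control 2 and control 7. piR-dre-1023349 had 0 to 60 reads after EE2 (median 3) and 0 to 120 in controls (median 13.5). piR-dre-339829, which leads a group of 4 entries with correlations of at least 0.97, had 0 to 26 reads after EE2 (median 4) and 0 to 35 in controls (median 4.5). In each of these entries the groups overlapped, and the highest control library was above the highest EE2 library. piR-dre-1204894 had 36 reads in EE2 replicate 5, 16 in control 2 and 19 in control 7, and 0 in 4 EE2 libraries and 4 control libraries. The near-identical entries piR-dre-1315890, piR-dre-429570, piR-dre-350296 and piR-dre-1322126 differed by at most 6 summed reads. piR-dre-1315890 had 46 reads in EE2 replicate 5 and 5 or fewer in the other EE2 libraries, and in controls it had 72 reads in control 2, 15 in control 7 and 12 in control 1.

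The forward-strand entry piR-dre-644638, which is not in the reverse table, was high in these libraries and in 4 others. It stood at 92.1 to 597 rpm of forward piRNA reads in EE2 replicates 5, 6 and 8 and at 2.80 to 17.3 in the other 4 EE2 libraries. In controls it stood at 130 to 1125 in controls 1, 2, 7 and 10 and at 6.68 to 14.7 in the other 4. Its log2 profile correlated with those of the 44 entries at 0.52 to 0.96 (median 0.81) over 15 libraries, which share depth between the tables. Over all 91 entries the median was 0.43 and 23 entries exceeded 0.8, against a median of -0.12 and 12 of the 359 steadier entries. The rule split these sets by spread over the same libraries, so the contrast is given as a description. The miRNA novelMiR_18155 had 12 to 73 reads in 7 libraries and 771 to 3005 in the other 8, and 6 of its 7 low libraries were among the 7 libraries high in piR-dre-644638. Control 1 was high in both and control 4 low in both. Correlations of the 91 entries with novelMiR_18155 ran from -0.83, for piR-dre-996119, to 0.56.

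**Figure D2:**
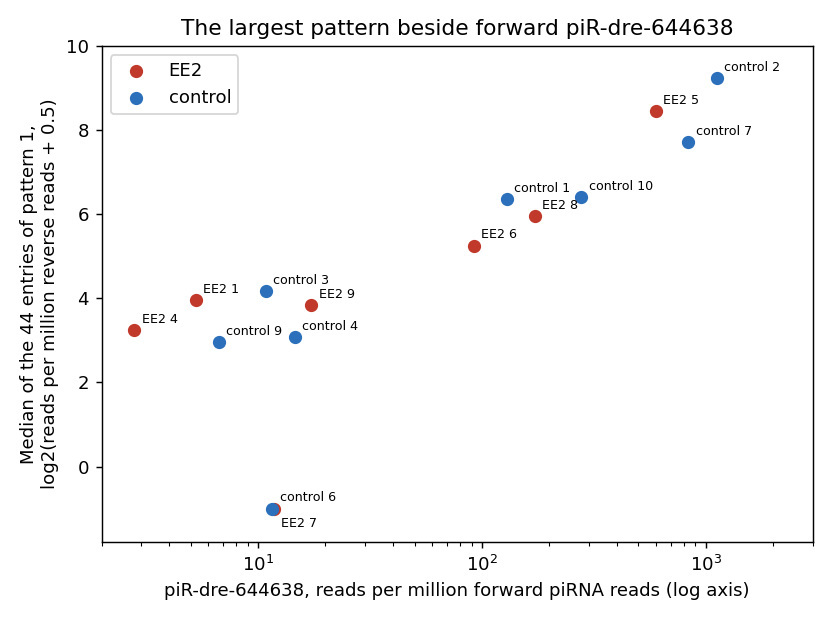
Each point is 1 library (EE2 red, control blue). The horizontal log axis is piR-dre-644638 in rpm of forward piRNA reads, and the vertical axis is the median of the 44 entries of the largest pattern, as log2 of rpm of reverse reads plus 0.5. EE2 replicate 5 and controls 2 and 7 are at the upper right, and EE2 replicate 7 and control 6 overlie each other at a median of 0 reads.

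A partly different set of libraries held the third pattern, of 9 entries. All 9 were present in EE2 replicate 4 and in controls 1, 2, 4 and 10. Controls 7 and 9 held 8 each and EE2 replicate 8 held 7. The core of this pattern was 7 entries with correlations of at least 0.999, among them piR-dre-442246 and piR-dre-741047, the second of which had the same counts as piR-dre-801848 in all libraries. piR-dre-442246 had 0 reads in EE2 replicates 1, 5 and 9 and 8 to 47 in the other 4 EE2 libraries. It had 0 reads in controls 3 and 6 and 11 to 42 in the other 6 controls. No library had between 1 and 7 reads of it. In EE2 replicate 5, which held all 44 entries of the largest pattern, 7 of these 9 entries were absent and 1 was present.

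The other patterns of 3 or more entries each shared 1 library in which all their entries were absent. The rule and the grouping favour this, because 1 library at 0 reads can carry much of the SD and of the correlation. For example, piR-dre-34480, at 0 reads only in EE2 replicate 7, had an SD of 0.51 within controls and 2.28 over all libraries. Of the 91 entries, 32 had 0 reads in exactly 1 library. The shared absences are therefore given as a description. The second pattern held 10 entries, all absent from EE2 replicate 7 and with 1 further absent count each in EE2 replicate 9 and in controls 4, 6 and 7. Its most abundant entry, piR-dre-34480, had 0 to 32 reads after EE2 (median 15) and 10 to 61 in controls (median 22.5). In the same pattern, piR-dre-522866 had 0 to 32 reads after EE2 (median 6) and 1 to 88 in controls (median 13). EE2 replicate 7 is a shallow library of 71010 reads, and the part of its depth in these zeros was not tested. The fourth pattern, of 4 entries, was absent from EE2 replicate 5 and includes piR-dre-540614, with 0 reads there and 2 to 81 in the other EE2 libraries, and with 3 to 68 in controls (medians 28 for all EE2 libraries and 27 for controls). The fifth, also of 4 entries, was absent from control 2. piR-dre-187911, in this pattern, had 9 to 48 reads in EE2 libraries, and in controls it had 0 reads in control 2 and 6 to 84 in the other 7. piR-dre-1058239, of the same pattern, had 6 to 19 reads after EE2 (median 10) and 0 to 16 in controls (median 5). The sixth, also of 4 entries, was absent from control 6, the shallowest library, and in it piR-dre-360589 had 153 reads in control 9, which is 55.0% of all its reads, with 0 to 31 in EE2 libraries and 0 to 25 in the other controls.

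Other abundant entries were grouped with none of the 91. piR-dre-982366 lay at 2 levels in both groups. It had 51 to 154 reads in EE2 replicates 1, 5, 7, 8 and 9 and 1 and 5 reads in EE2 replicates 6 and 4. In controls it had 41 to 121 reads in controls 1, 3, 6, 7 and 10 and 1 to 3 in controls 2, 4 and 9. piR-dre-1296106 had 873 of its 1178 reads in EE2 replicate 6, 1 to 21 reads in the other EE2 libraries and 5 to 66 in controls.

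**Figure D3:**
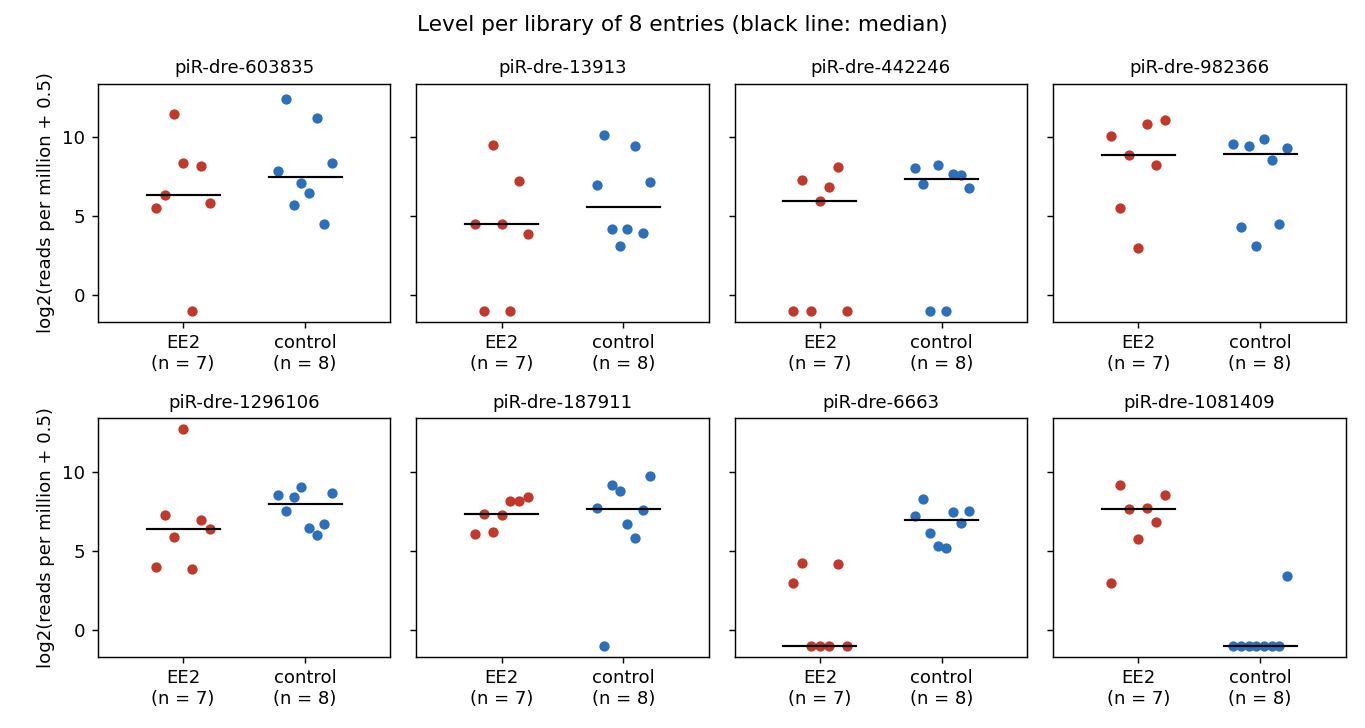
Level per library of 8 entries as log2 of rpm of reverse-strand reads plus 0.5 (points are libraries, black lines are group medians, EE2 left of control). piR-dre-442246 and piR-dre-982366 spread over similar ranges in both groups. piR-dre-603835 and piR-dre-13913 spread widely in both groups, but only EE2 libraries reach 0 reads. piR-dre-1296106 and piR-dre-187911 each have 1 library far from the others. piR-dre-6663 and piR-dre-1081409 separate the groups wholly or almost wholly.

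Several entries had counts that also stand in the forward table under another name. For 8 of the 91 (8.79%) a forward entry had exactly the same count in all 15 libraries, and for 18 (19.8%) the summed difference was at most 10% of the entry's reads. Among the 359 steadier entries the shares were 5.29% and 20.1%. piR-dre-1296106 on the reverse strand and piR-dre-190224 on the forward strand had identical counts, the 873 reads of EE2 replicate 6 included. piR-dre-318402 matched forward piR-dre-252501 exactly, and piR-dre-603835 differed from forward piR-dre-645797 by 39 of 1423 reads. Whether such pairs are complementary sequences that took the same reads was not tested, as no sequences were used. By correlation of log2 profiles, the best forward match of an entry had a median r of 0.89 (0.62 to 0.99), against 0.83 for the steadier entries. Each is the highest of 2025 correlations over 15 libraries, and the rule split the sets by spread, so nothing is read from the difference.

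Of the 91 entries, 2 differed between EE2 and control libraries by edgeR's quasi-likelihood test over all 584 reverse-strand entries, fitted without a filter on low counts. These were the only calls in the table, so the share called over all entries was 0.342%. The rule favours entries with a group difference, since such a difference adds to the SD, and nothing is read from the 2 calls lying among the 91. piR-dre-1081409 had 1 read in EE2 replicate 1 and 7 to 64 in the other 6 EE2 libraries (median of all 7, 19), against 0 reads in 7 controls and 1 in control 10. Every EE2 library except replicate 1 was above every control. In edgeR's test it rose by 6.67 ± 0.90 (SE) on the log2 scale, with an adjusted p of 0.000658, a fitted size that depends on the 1 control read. Its pooled rate per read of the forward table was 162 times higher after EE2 (95% exact interval 28.7 to 6444, counting error only). piR-dre-6663 had 0 reads in 4 EE2 libraries and 1, 2 and 3 in EE2 replicates 1, 4 and 8, against 2 to 33 in controls (median 16.5). Each EE2 library was below each control in rpm, with at most 17.9 after EE2 and at least 35.1 in controls, where the lowest value came from 2 reads in control 6. It fell by 4.04 ± 0.74 (SE) on the log2 scale in edgeR's test (adjusted p = 0.0124), and its groups were the only ones of the 584 entries that did not overlap (0.171%).

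Both calls depended on the filter and on the tool. edgeR's filterByExpr at its minimum count of 10 kept 440 entries and 28 of the 91, removed both called entries and left 0 calls, with 16 entries of the 440 and 0 of the 28 at an unadjusted p under 0.05. limma voom, with adjusted p = 0.376 for both and log2 fold changes of 4.65 and -3.61, and the exact permutation test, with adjusted p = 0.136 for piR-dre-1081409 and 0.0908 for piR-dre-6663, also called 0. The permutation p of piR-dre-6663, 0.000155, is the smallest that 6435 splits can give, so its adjusted value could not have passed alone. Without the 3 shallowest libraries, an alternative added after the data were seen, piR-dre-1081409 was still called and piR-dre-6663 was not (edgeR adjusted p = 0.0655), with log2 fold changes of 6.41 and -3.91.

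The forward entry most like piR-dre-1081409 was piR-dre-195477, with r = 0.97 over the 15 libraries, and that most like piR-dre-6663 was piR-dre-36083, with r = 0.84. Each r is the highest among 2025 forward entries, and such best values had a median of 0.83 in the steadier entries. piR-dre-36083 had 20 to 167 reads in EE2 libraries and 93 to 285 in controls, so it was not near 0 reads after EE2. piR-dre-1081409 and piR-dre-6663 were each grouped with 1 other entry. The companion of piR-dre-1081409 was piR-dre-849124, with 2 to 19 reads after EE2 (median 10) and 0 to 27 in controls (median 2.5), and that of piR-dre-6663 was piR-dre-1191186, with 0 to 19 reads after EE2 (median 0) and 0 to 43 in controls (median 3.5). In both companions the groups overlapped. Correlations of piR-dre-1081409 and piR-dre-6663 with piR-dre-644638 were -0.12 and 0.20. The group difference was 82.8% of the log2 variance of piR-dre-1081409 and 71.1% of that of piR-dre-6663. Over the 91 entries its median was 5.06%, and 3 entries exceeded 25%. Over all 584 entries the median was 2.98%, and 32 exceeded 25%. The median SD of the 91 was 3.06 within EE2 libraries, 3.02 within controls and 3.03 over both.

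The other 89 entries did not pass edgeR's adjusted threshold. Of the 91, 3 had an unadjusted p under 0.05, against 3.42% of all 584 entries. That count changed with EE2 replicate 5: without it, 23 of the 91 and 9.25% of all 584 entries had an unadjusted p under 0.05 in edgeR, and the adjusted calls were still 2. With any other library left out, the count was 3 to 5 of the 91 and the share of all entries 2.23% to 6.85%, with 5 of the 91 when EE2 replicate 1, EE2 replicate 6, control 4 or control 7 was the one left out. The third entry with all libraries was piR-dre-37181, with 0 to 8 reads after EE2 (median 2) and 3 to 40 in controls (median 8), a log2 fold change of -1.97 ± 0.65 (SE) and an edgeR adjusted p of 0.817. Its groups overlapped: EE2 replicate 1, at 59.8 rpm, was above controls 2 and 4. The next lower entries by p were piR-dre-598195, at 0 to 13 reads after EE2 and 0 to 60 in controls, piR-dre-34480 and piR-dre-522866 (edgeR adjusted p = 0.867 each). On the higher side, piR-dre-1296106, piR-dre-1058239, piR-dre-982366 and piR-dre-849124 followed piR-dre-1081409, each with adjusted p = 0.867. The fold change of piR-dre-1296106 was 2.05 ± 1.07 (SE) and rested on EE2 replicate 6, without which it was -1.69. SEs over the 91 entries had a median of 0.98 log2 units, against 0.38 in the steadier entries, a difference that the rule favours because it split entries by spread. For 0 of the 91 did the 95% interval of the fit lie within a 2-fold difference either way.

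**Figure D4:**
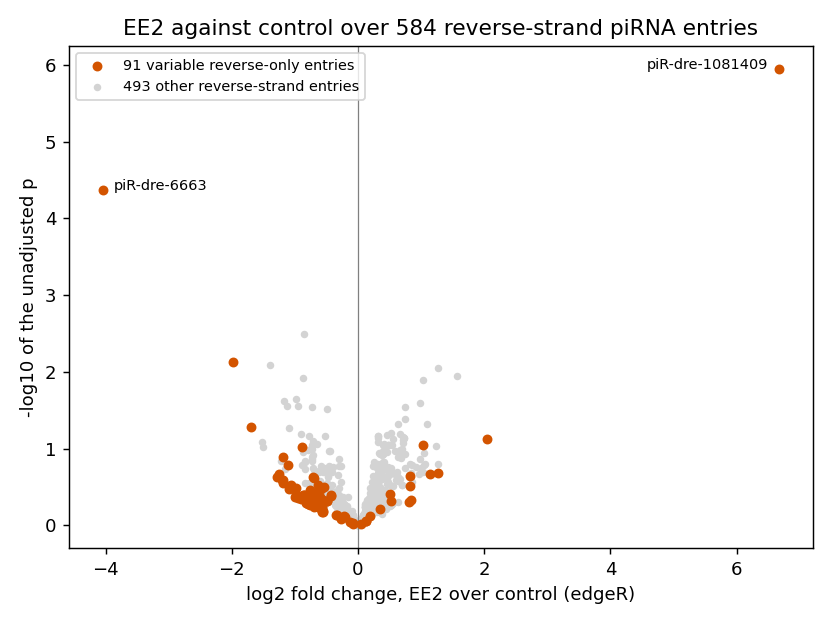
Log2 fold change of EE2 over control against -log10 of the unadjusted p from edgeR's quasi-likelihood test, for the 91 variable reverse-only entries (orange) and the other reverse-strand entries (grey). piR-dre-1081409 at 6.67 and piR-dre-6663 at -4.04 lie far above the rest, and most orange points lie left of 0 with p over 0.05.

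Fitted fold changes of the 91 lay mostly below 0: 75 were below 0 and 16 above, with 1 of each past the test, while 42.8% of all 584 entries were below 0. The median log2 fold change was -0.66, against 0.09 over all entries. The largest pattern gave 42 of the 75, with a median of -0.69 and a lowest edgeR adjusted p of 0.867. Its 3 highest libraries are 1 EE2 and 2 control libraries. With 1 entry per profile, 50 of 65 were below 0, but 31 of the 65 profiles belong to the largest pattern and vary together. Without control 2 the count below 0 was 58 of 91 and the median -0.17, and without EE2 replicate 5 they were 77 and -1.09. With reverse-table sizes 77 of the 91 and 55.1% of all entries were below 0, and with library size alone 79 and 64.9%. In bulk libraries fewer cells of a type and less RNA per cell cannot be told apart for any of these entries.

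**Figure D5:**
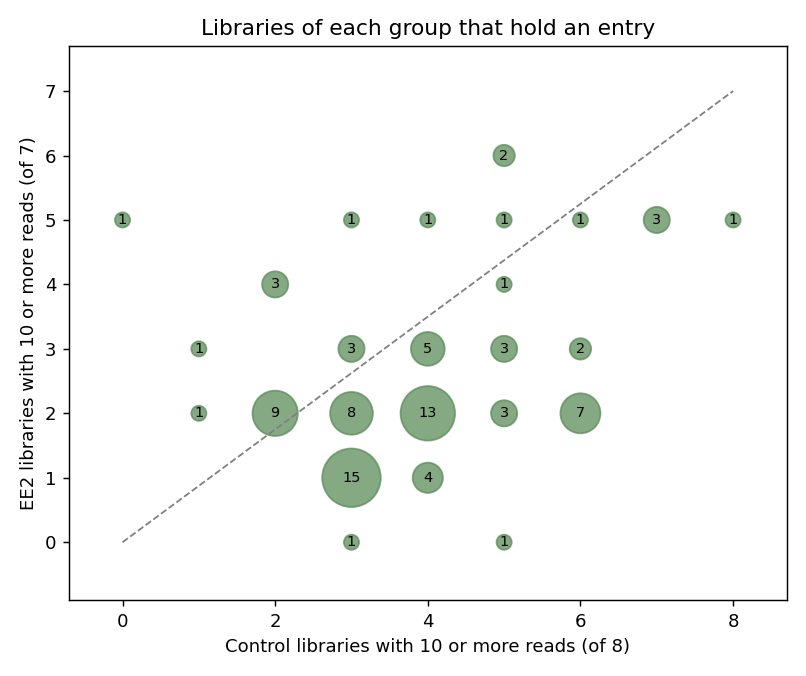
Number of EE2 libraries (vertical, of 7) and control libraries (horizontal, of 8) in which an entry had 10 or more reads. Circle area and the number in it give the entries at that point, and the dashed line marks equal shares of the groups. The entry at 5 EE2 and 0 control libraries is piR-dre-1081409, and those at 0 EE2 libraries are piR-dre-6663 (5 controls) and piR-dre-37181 (3 controls).

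No entry was present in every library of one group and absent from every library of the other. Of the 91, piR-dre-1081409 was the 1 entry present in EE2 libraries and in 0 controls. piR-dre-6663 and piR-dre-37181 were the 2 present in controls and in 0 EE2 libraries. piR-dre-6663 was absent from 5 EE2 libraries, but piR-dre-37181 was absent from only 1 and had up to 8 reads in the others. The rule favours entries with a group difference, and the same counts were not made over all reverse-strand entries, so nothing is read from them.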

How the data were processed

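Total RNA of whole larvae was made into small RNA libraries (TruSeq kit, per the labels' protocols). The values deposited by the authors are raw read counts for each reference piRNA or miRNA, as the whole numbers and unequal totals show. Tools named in the submitters' processing notes are Bowtie 1.2.3, bcl2fastq 2.19.1, edgeR 3.26.8 and limma 3.40.6. How reads matching several sequences were counted is not given in the sources used here, and near-copies would repeat each other if such reads counted on each. Columns were matched to samples by title.

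EE2 was tested against control over all 584 reverse-strand entries with edgeR 4.0.16 in R 4.3.3 (quasi-likelihood F test with robust dispersions, sizes and TMM from the forward table, Benjamini-Hochberg threshold 0.05). No filter was applied, because it removes entries held by few libraries. SEs came from the F statistic. DESeq2 1.42.0, limma 3.58.1 (voom) and a two-sided exact permutation test on mean log2(rpm + 0.5) were alternatives. The exact interval of a pooled rate covers counting error only, while the intervals set against a 2-fold difference came from the fit. The entries, lists, tests and the absence of a filter were chosen with earlier results of these data known. Entries are named if past the threshold, among the 10 with most reads, leading a profile of 3 or more, among the 5 smallest p per direction or the 5 in fewest libraries, or at an edge of the rule; others were named after their values were seen.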

Additional observations from a re-analysis of the deposited data

Results flagged for a closer look

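Dixon's 95% value was exceeded by 1 library in 16 of 60 comparisons within a group. About 3 would be flagged by chance in groups chosen beforehand, but these entries were chosen for their spread, so the numbers are not comparable. A log2 level of -1 is 0 reads.

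A single library was high for piR-dre-1081409 in control 10 (3.39, from 1 read, with 0 in the other controls) and for piR-dre-1296106 in EE2 replicate 6 (12.68, the next EE2 library 7.25). A single library was at -1 for piR-dre-34480 and piR-dre-37181 in EE2 replicate 7 and for piR-dre-598195 in EE2 replicate 9. Among controls, control 2 was at -1 for piR-dre-187911, piR-dre-142480, piR-dre-1058239 and piR-dre-748522, control 6 for piR-dre-1023349 and piR-dre-598195, and control 4 for piR-dre-120305. Control 10 was low for piR-dre-540614 (4.93, the next control 7.15) and for piR-dre-783399 (4.35, the next 5.81). The 91 entries took 2.40% of reverse reads in EE2 replicate 5, where the next EE2 library had 1.24%, and 3.77% in control 2, where the next control had 1.85%.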

How the results depend on the processing

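Both calls, piR-dre-1081409 and piR-dre-6663, were the count of 2 over all entries and over the 91 with reverse-table sizes and TMM, library size alone, DESeq2 size factors in edgeR, DESeq2, and with each library left out in turn (2 to 2). DESeq2 gave no p for piR-dre-1296106, so its count did not cover every entry. The count of calls was 0 with filterByExpr, 0 with limma voom (25 entries at an unadjusted p under 0.05) and 0 with the exact permutation test (34 entries). It was 1 with the replicate block and 1 without the 3 shallowest libraries, an alternative added after the data were seen. In both, piR-dre-6663 lost its call (adjusted p = 1.00 and 0.0655, with log2 fold changes of -3.67 and -3.91 against -4.04), and both fits use fewer libraries. Replicate numbers were shared by 5 pairs, whose correlations of deviations ran from -0.29 to 0.38, with 1 of 5 highest for its own number. So few pairs cannot decide whether the numbers pair libraries. Over the alternatives, adjusted p was 7.75e-08 to 0.376 for piR-dre-1081409, while piR-dre-6663 had 0.000145 to 1.00. Signs turned for piR-dre-1296106 with limma voom (-0.55), the replicate block (-0.87), the permutation test (-0.96) and without EE2 replicate 6 (-1.69), with 2.29 as the highest value with 1 library left out, and for piR-dre-849124 without the 3 shallowest libraries (-0.14). The median of all entries moved by -0.20 with library size alone and by -0.13 with reverse-table sizes; relative to it the median of the 91 was -0.75 in the reported fit, -0.70 and -0.72. With limma voom the median of the 91 was -0.36, against -0.66 in the reported fit, and the cause was not tested.

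The rule gave 33 entries with rpm of the forward table and 69 to 90 with 1 library left out. The broad grouping gave 17 patterns in place of 65 profiles, and 62 to 65 profiles were found with 1 library left out. At a correlation of 0.90 or more there were 56 profiles, and at 0.98 or more there were 69. Thinning to the smallest total left 288 present counts of 562.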
